A study of Mus musculus with 6 samples.

Results

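The interferon regulatory factors (IRFs) and the signal transducers and activators of transcription (STATs) are the transcription factors through which cells answer interferons and many cytokines. Transcript levels of 9 of them, Irf1, Irf2, Irf3, Irf5, Irf7, Irf9, Stat2, Stat3 and Stat6, were compared in mouse embryonic fibroblasts (MEFs), primary connective tissue cells cultured from whole embryos. The genes were chosen by name, each read from its brightest transcript cluster annotated with exactly 1 gene symbol, and they are 9 of 19938 genes named on the array in this way. The groups were 3 cultures homozygous for the L allele of the retinoblastoma gene (Rb1L/L) and 3 wild-type cultures (Rb1+/+), 1 array each. Both were made from E13.5 embryos, carried to passage 4 and harvested while proliferating, without any treatment in the labels. Rb1 encodes pRb, which restrains E2F transcription factors, and the L allele is known to weaken its binding to partners that carry the LXCXE motif. The allele is in every cell of the embryo, and the sources used here do not give the strain, the litters or whether cultures shared an embryo. The study's title names condensin II and divergently paired genes.

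As background, type I interferon binds a receptor made of Ifnar1 and Ifnar2, and the kinases Jak1 and Tyk2 then phosphorylate STAT proteins. STAT2 enters the nucleus with IRF9 in a complex called ISGF3, which binds interferon-stimulated response elements in the promoters of antiviral genes. IRF3 and IRF7 act before interferon is made: kinases such as TBK1 activate them after viral nucleic acid is sensed, and they switch on the interferon genes. Irf7, Irf9 and Stat2 are themselves known as interferon-induced genes, so the pathway can raise the level of its own factors. IRF1 activates and IRF2 mostly represses overlapping promoters, IRF5 is best known from macrophages and dendritic cells, STAT3 carries signals of the interleukin 6 family and STAT6 those of interleukin 4 and interleukin 13.

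All 9 genes had a promoter sequence in the RefSeq table for assembly GRCm38.p6, reaching from 250 bases before the annotated start to 50 after it; Irf1 and Irf9 had 2 annotated starts, giving 11 sequences. They were searched on both strands for GAAANN followed directly by GAAA (the core of the interferon-stimulated response element), TTCNNNGAA (the core of the gamma-activated site, which STAT dimers bind) and the E2F motifs TTTCGCGC and TTTGGCGC. None of these motifs overlapped another in the sequences of the 9 genes. The promoters of 3 genes held a match, and these are shown with the matches in capitals. Irf7 and Irf9 (first start), which rose most besides Stat2, and Irf3, whose start lies close to that of a neighbour, are shown as sequences without a match.
Stat2, chr10:128270248-128270547, plus strand: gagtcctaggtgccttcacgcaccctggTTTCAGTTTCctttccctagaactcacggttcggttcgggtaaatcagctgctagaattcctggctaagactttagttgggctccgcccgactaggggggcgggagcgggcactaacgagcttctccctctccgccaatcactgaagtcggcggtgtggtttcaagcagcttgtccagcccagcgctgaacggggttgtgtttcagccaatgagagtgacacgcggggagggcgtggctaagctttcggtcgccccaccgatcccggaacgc
Irf1 (first start), chr11:53769764-53770063, plus strand: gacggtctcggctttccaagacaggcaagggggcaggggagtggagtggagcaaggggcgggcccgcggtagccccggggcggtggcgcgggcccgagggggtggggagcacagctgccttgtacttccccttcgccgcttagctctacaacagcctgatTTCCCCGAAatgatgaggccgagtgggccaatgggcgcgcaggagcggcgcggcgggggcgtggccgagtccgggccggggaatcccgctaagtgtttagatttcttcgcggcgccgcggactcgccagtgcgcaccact
Irf2, chr8:46739495-46739794, plus strand: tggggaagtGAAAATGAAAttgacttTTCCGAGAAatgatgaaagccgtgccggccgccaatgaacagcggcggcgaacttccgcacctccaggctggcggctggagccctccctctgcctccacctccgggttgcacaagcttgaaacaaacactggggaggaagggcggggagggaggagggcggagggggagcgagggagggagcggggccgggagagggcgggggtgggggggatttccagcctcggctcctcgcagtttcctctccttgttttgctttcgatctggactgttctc
Irf7, chr7:141266375-141266674, minus strand: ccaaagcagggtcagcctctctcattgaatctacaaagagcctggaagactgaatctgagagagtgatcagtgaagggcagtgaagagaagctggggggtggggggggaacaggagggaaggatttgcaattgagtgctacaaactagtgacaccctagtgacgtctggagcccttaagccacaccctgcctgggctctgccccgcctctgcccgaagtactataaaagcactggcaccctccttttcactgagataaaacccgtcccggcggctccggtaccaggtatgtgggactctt
Irf9 (first start), chr14:55603735-55604034, plus strand: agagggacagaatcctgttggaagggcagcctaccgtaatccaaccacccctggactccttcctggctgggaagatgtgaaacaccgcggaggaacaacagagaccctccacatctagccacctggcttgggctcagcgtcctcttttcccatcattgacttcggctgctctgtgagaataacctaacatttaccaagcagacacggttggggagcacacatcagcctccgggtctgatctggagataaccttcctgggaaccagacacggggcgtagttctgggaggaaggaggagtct
Irf3, chr7:44997398-44997697, plus strand: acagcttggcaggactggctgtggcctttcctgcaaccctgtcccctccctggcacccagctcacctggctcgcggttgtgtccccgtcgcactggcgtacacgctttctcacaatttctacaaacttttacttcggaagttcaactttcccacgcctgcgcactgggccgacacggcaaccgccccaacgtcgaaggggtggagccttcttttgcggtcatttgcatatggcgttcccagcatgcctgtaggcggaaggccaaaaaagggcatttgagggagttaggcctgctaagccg

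In the Stat2 promoter the response element core lay on the opposite strand, starting 222 bases before the annotated start, and in the Irf2 promoter it lay 241 bases before it, followed by a gamma-activated site core at 224 bases. The Irf1 promoter held a gamma-activated site core 90 bases before the start. The response element core was present in 3.44% of all 32851 promoter sequences in the table and the gamma-activated site core in 8.30%; the E2F motifs, in 0.323% and 0.514% of promoters, were in none of the 11 sequences. These are matches of letters in a 300-base window, and no binding was measured.

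Values are log2 expression values made by the authors with RMA, so a difference of 1 is a doubling, and levels of different genes depend on their probes and cannot be ranked against each other. A gene was tested if it averaged more than 5.08, a cutoff below which 90% of the receptor genes for smell and pheromones fell. All 9 genes passed it, and 15462 genes were tested. Each log2 fold change is Rb1L/L minus Rb1+/+ from limma, given with its moderated standard error (SE) and a p adjusted by Benjamini-Hochberg over all tested genes, with a threshold of 0.05. Arrays correlated at 0.995 to 0.996 within and at 0.987 to 0.993 between genotypes. Rb1 itself measured 8.93 ± 0.07 in Rb1L/L and 8.83 ± 0.19 in Rb1+/+ cultures (SD, n = 3 each; limma adjusted p = 0.519), and since the altered allele is transcribed, this does not check the labels. Fibroblast markers were bright on all arrays: the mean log2 value of 11 markers ran from 10.64 to 10.71 in Rb1L/L and from 10.79 to 10.89 in Rb1+/+ cultures, and Col3a1 and Lum, both matrix genes, fell by 0.33 and 0.39. The cultures numbered 1 in both genotypes were of male type, with Xist at log2 4.79 in Rb1L/L and 5.13 in Rb1+/+, and the other 4 of female type, with Xist at 11.44 or above.

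Of the 9 genes, 5 rose in Rb1L/L cultures, none fell and 4 did not pass. In all tested genes 7.10% rose, 5.08% fell and 12.2% passed in either direction. With the replicate number as a block the same 5 rose, beside 7.99% of tested genes that rose and 6.45% that fell. For the same 5 genes every Rb1L/L array lay above every Rb1+/+ array, which held for 16.2% of tested genes; the opposite held for 18.3% of tested genes and for none of the 9. The rises were of different size: Irf7 4.68-fold, Stat2 2.74-fold and Irf9 2.73-fold, but Irf1 1.37-fold and Irf3 1.17-fold.

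**Figure D1:**
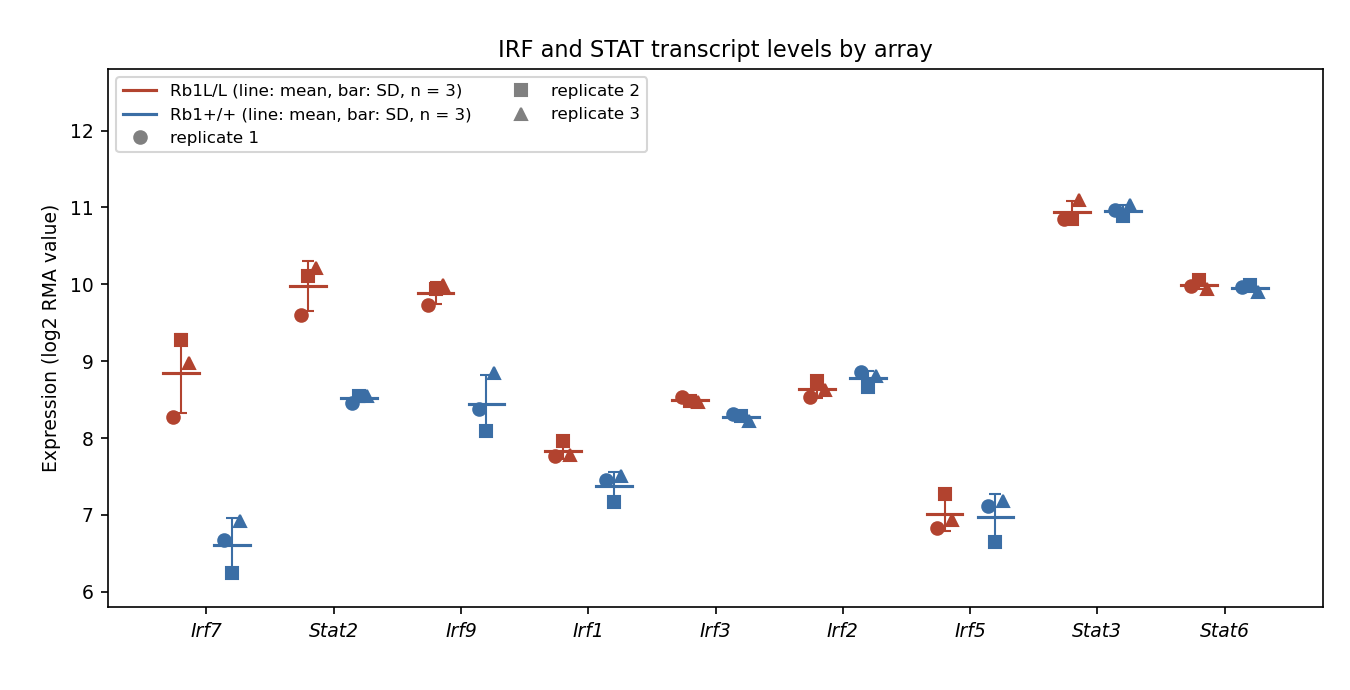
Log2 RMA expression value (vertical axis) of the 9 genes in each of the 6 arrays, Rb1L/L left and Rb1+/+ right for each gene; symbols mark the replicate number, lines the mean and bars the SD (n = 3). The nearest arrays of the genotypes are 0.89 or more apart for Irf7, Stat2 and Irf9, apart but close for Irf1 and Irf3, and overlap for Irf2, Irf5, Stat3 and Stat6.

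Stat2 and Irf9 encode the STAT and the DNA-binding IRF subunit of ISGF3. Stat2 measured log2 9.60, 10.11 and 10.22 in the Rb1L/L cultures (replicates 1, 2 and 3), against 8.46, 8.55 and 8.55 in the Rb1+/+ cultures. The wild-type arrays were nearly alike, with an SD of 0.05, while the Rb1L/L arrays had an SD of 0.33 with replicate 1 lowest. The log2 fold change was 1.46 ± 0.14 (SE; limma adjusted p = 0.00251), the 26th highest of all tested genes. Irf9 measured 9.73, 9.94 and 9.99 in Rb1L/L, against 8.38, 8.09 and 8.84 in Rb1+/+ cultures. Here the wild-type arrays spread more (SD 0.38) than the Rb1L/L arrays (SD 0.14), and the groups stayed apart by the gap between 9.73 and 8.84. The log2 fold change was 1.45 ± 0.17 (SE; limma adjusted p = 0.0036). The changes of Irf9 and Stat2 differed by -0.01 ± 0.25 (SE over arrays; exact permutation p = 1, two-sided).

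Irf7 is known as the factor that amplifies interferon production once the pathway is on. It measured 8.28, 9.27 and 8.98 in Rb1L/L, against 6.67, 6.24 and 6.93 in Rb1+/+ cultures. Its spread was the widest of the 9 genes in Rb1L/L (SD 0.51) and the second widest in Rb1+/+ cultures (SD 0.35), but the lowest Rb1L/L array was still 1.35 above the highest Rb1+/+ array. The log2 fold change was 2.23 ± 0.25 (SE; 95% interval 1.65 to 2.81; limma adjusted p = 0.00326), the seventh highest of all tested genes. Between same-numbered cultures the difference was 1.60, 3.03 and 2.05. The change of Irf7 was larger than that of Irf9 by 0.78 ± 0.24 and than that of Stat2 by 0.77 ± 0.26 (SE over arrays), with no overlap of the genotypes in the per-array differences. The exact permutation test over arrays, two-sided, gave p = 0.1 for both, the smallest that 3 arrays against 3 can give (adjusted p = 0.133 over 4 such comparisons, chosen after the values were seen).

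Irf3, the factor that cells carry ready-made in an inactive form, measured 8.54, 8.48 and 8.47 in Rb1L/L, against 8.31, 8.28 and 8.22 in Rb1+/+ cultures. The arrays of each genotype lay close together (SD 0.04 in both) and the genotypes did not overlap. The log2 fold change was 0.22 ± 0.06 (SE; limma adjusted p = 0.0375), with differences of 0.23, 0.20 and 0.25 between same-numbered cultures. The call was lost after median centring (0.20, adjusted p = 0.0647), after quantile normalization (0.20, adjusted p = 0.0607) and in all 6 fits without 1 array (adjusted p = 0.0679 to 0.13). Its direction was the same in all 17 alternative fits.

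Irf1 and Irf2 are known as an activator and a repressor of overlapping promoters. Irf1 measured 7.76, 7.96 and 7.78 in Rb1L/L, against 7.45, 7.17 and 7.51 in Rb1+/+ cultures. The genotypes did not overlap, and the pair numbered 2 was farthest apart, holding the highest Rb1L/L and the lowest Rb1+/+ value. The log2 fold change was 0.45 ± 0.10 (SE; limma adjusted p = 0.0255). This call passed in 2 of the 6 fits without 1 array, and without both arrays numbered 2 the change was 0.29 (adjusted p = 0.0968). Irf1 also had a second, dimmer cluster, at 6.73, 6.85 and 6.50 in Rb1L/L, against 6.59, 6.66 and 6.50 in Rb1+/+ cultures. That cluster overlapped between the genotypes and differed by 0.11, and with the mean of both clusters Irf1 did not pass (0.28, adjusted p = 0.0524).

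Irf2 measured 8.53, 8.75 and 8.62 in Rb1L/L, against 8.85, 8.66 and 8.81 in Rb1+/+ cultures. The values overlapped, and the log2 fold change of -0.14 ± 0.08 (SE; 95% interval -0.32 to 0.04; limma adjusted p = 0.268) did not pass. Its promoter, printed above, holds a response element core as that of Stat2 does. The changes of Irf1 and Irf2 differed by 0.60 ± 0.06 (SE over arrays), without overlap of the genotypes (exact permutation p = 0.1, two-sided, again the smallest possible; adjusted p = 0.133).

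Irf5 measured 6.83, 7.27 and 6.94 in Rb1L/L, against 7.12, 6.64 and 7.18 in Rb1+/+ cultures. Its values spread widely and overlapped, with the highest and the lowest array both numbered 2. The log2 fold change was 0.04 ± 0.16 (SE; 95% interval -0.33 to 0.40; limma adjusted p = 0.909), and without both arrays numbered 2 it was -0.26 (adjusted p = 0.13), so a direction cannot be given.

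Stat3 and Stat6, the factors of the interleukin 6 and interleukin 4 branches, did not pass. Stat3 measured 10.85, 10.85 and 11.10 in Rb1L/L, against 10.96, 10.88 and 11.03 in Rb1+/+ cultures (log2 fold change -0.03 ± 0.08 SE; 95% interval -0.21 to 0.16; limma adjusted p = 0.873). Stat6 measured 9.98, 10.05 and 9.94 in Rb1L/L, against 9.97, 9.99 and 9.90 in Rb1+/+ cultures (0.04 ± 0.06 SE; 95% interval -0.10 to 0.17; limma adjusted p = 0.716). The genotypes overlapped for both genes, and the upper ends of the intervals are rises of 1.13-fold for Stat6 and 1.12-fold for Stat3.

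**Figure D2:**
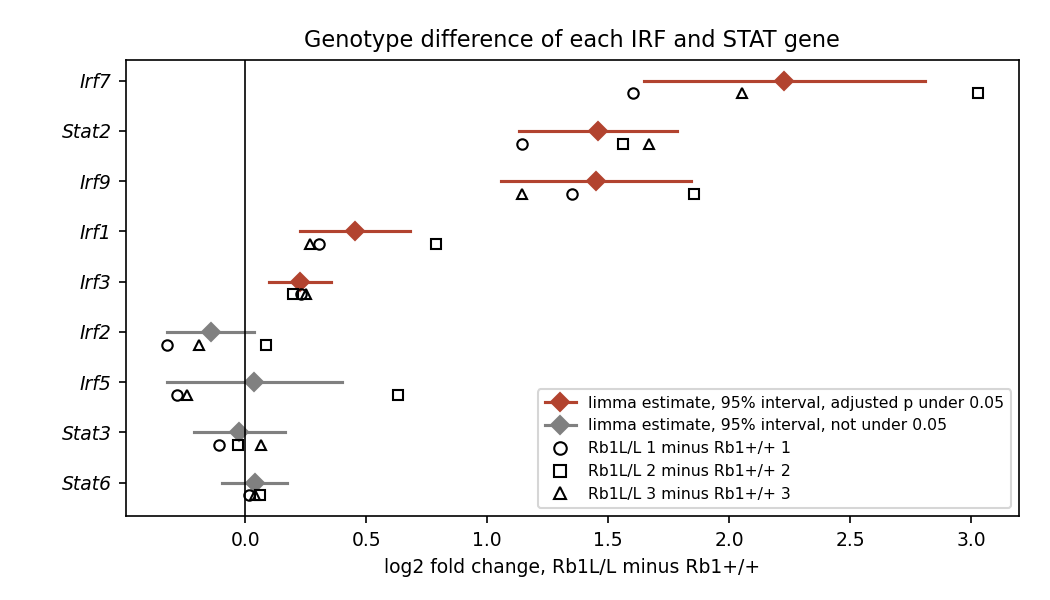
Log2 fold change, Rb1L/L minus Rb1+/+, of the 9 genes (horizontal axis): diamonds are limma estimates with 95% intervals, red where the adjusted p is under 0.05, and open symbols the differences between same-numbered cultures. All 3 differences are above 0 for Irf7, Stat2, Irf9, Irf1, Irf3 and Stat6, and pair 2 lies apart from pairs 1 and 3 for Irf5, at 0.63 against -0.28 and -0.24.

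The genes around these factors were counted in 10 lists by role, with 123 different genes tested; 12 genes on the array stand in more than 1 list. Among all tested genes 7.10% rose and 5.08% fell, and the median log2 fold change was -0.02. An unadjusted p under 0.05 in limma was reached by 4444 of them (28.7%). Of the other IRF and STAT genes, Irf8 (0.05), Stat5a (-0.05) and Stat5b (0.13) were tested and none passed in limma, nor reached an unadjusted p under 0.05, while Irf4 and Stat4 lay under the cutoff. No ligand passed: none of 10 tested interferon and cytokine genes passed in limma (2 at an unadjusted p under 0.05; median -0.02), and 8 more lay under the cutoff. Ifnb1, the interferon gene fibroblasts are best known for, was among those, at log2 4.42 in Rb1L/L and 4.44 in Rb1+/+ cultures. Ifng measured 5.96 in Rb1L/L and 6.05 in Rb1+/+ cultures, a difference of -0.09 ± 0.06 (SE; limma adjusted p = 0.366). Lif, a ligand of the interleukin 6 family, passed with the replicate number as a block only (0.32, adjusted p = 0.0291).

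Of the receptors and JAK kinases none of 15 was past the threshold in limma, and none reached an unadjusted p under 0.05 (median -0.06). The share of all tested genes past the threshold was 12.2%. The type I interferon receptor genes Ifnar1 and Ifnar2 had log2 fold changes of -0.05 (95% interval -0.21 to 0.10) and -0.06 (-0.19 to 0.07). The interferon gamma receptor genes Ifngr1 and Ifngr2 both had -0.07, and the kinase genes Jak1, Jak2 and Tyk2 had -0.06, 0.12 and 0.00.

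Of 16 genes that act upstream of IRF3, IRF5 and IRF7, 6 rose and 1 fell (median 0.12). Among all tested genes 7.10% rose and 5.08% fell. Of the 6, Ifih1 and Ddx58 stand in the ISGF3 target list too. The cytosolic RNA sensor genes Ifih1, Dhx58 and Ddx58 rose by 1.87 ± 0.21, 1.53 ± 0.14 and 1.15 ± 0.14, and the DNA sensor gene Cgas by 0.41 ± 0.07 (SE; limma adjusted p = 0.00218 to 0.0109). Ticam1, the adaptor of TLR3, fell by 0.41 (SE 0.08; limma adjusted p = 0.0178), a call lost when Rb1L/L replicate 1 or 2 was left out (adjusted p = 0.0646 and 0.0635), or Rb1+/+ replicate 1 (0.0516). Leaving out both arrays numbered 1, or both numbered 2, left 3 of these genes that rose. Neither the kinase gene Tbk1 (0.04 ± 0.06) nor the adaptor gene Mavs (0.00 ± 0.06; both chosen after their values were seen) passed. Among 18 negative regulators 2 rose and none fell (median 0.03), beside the same 7.10% and 5.08% of all tested genes. Usp18, which blocks signalling at IFNAR2, rose by 3.79 ± 0.31, and Trim21, a ubiquitin ligase for IRF proteins, by 1.12 ± 0.12. Usp18 stands in the ISGF3 target list too. Socs1 (0.18 ± 0.07) and Socs3 (-0.10 ± 0.12; both chosen after their values were seen), which inhibit JAK kinases, did not pass.

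Target genes were counted by the factor they are known to answer to. The shares of all tested genes to set beside these counts are 7.10% that rose and 5.08% that fell. Of 21 ISGF3 targets 17 rose and none fell, with a median log2 fold change of 1.27. Rtp4, Usp18, Bst2 and Ifi35 had the smallest p, with rises of 3.57, 3.79, 2.40 and 1.63. Of 15 IRF1 targets, 5 rose and none fell (median 0.21), led by the GTPase gene Gbp3 (1.52 ± 0.15), the peptide transporter gene Tap1 (0.99 ± 0.10) and the immunoproteasome gene Psmb8 (1.35 ± 0.21). This count was 3 without Rb1L/L replicate 2 or Rb1L/L replicate 3, and 2 to 3 without both arrays of 1 number. Of 6 IRF3 targets, 4 rose (median 1.29), among them the chemokine gene Ccl5 by 2.04 ± 0.19. Ifit1 and Ifit3, which rose, and Rsad2, which did not pass (0.07), stand in the ISGF3 list too. Cxcl10, which rose, stands in the IRF1 list too. Without both arrays numbered 2 the count of IRF3 targets that rose was 2.

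Of 18 STAT3 targets, 4 rose and 1 fell (median 0.02), beside 7.10% and 5.08% of all tested genes. The acute phase genes Lcn2 (1.14 ± 0.17) and Saa3 (0.79 ± 0.15), the adhesion gene Icam1 (0.51 ± 0.11) and the kinase gene Pim1 (0.38 ± 0.07) rose. The growth factor gene Fgf2 fell by 0.33 (SE 0.09). The number that rose was 1 without Rb1L/L replicate 2, 2 without Rb1+/+ replicate 1 and 2 with the stricter cutoff of log2 6; Fgf2 passed in 1 of the 6 fits without 1 array. None of 12 STAT6 targets passed in limma (2 at an unadjusted p under 0.05; median -0.05), beside 12.2% of all tested genes that passed in either direction. The lists were chosen with earlier results of these data known, so their direction is not independent evidence.

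**Figure D3:**
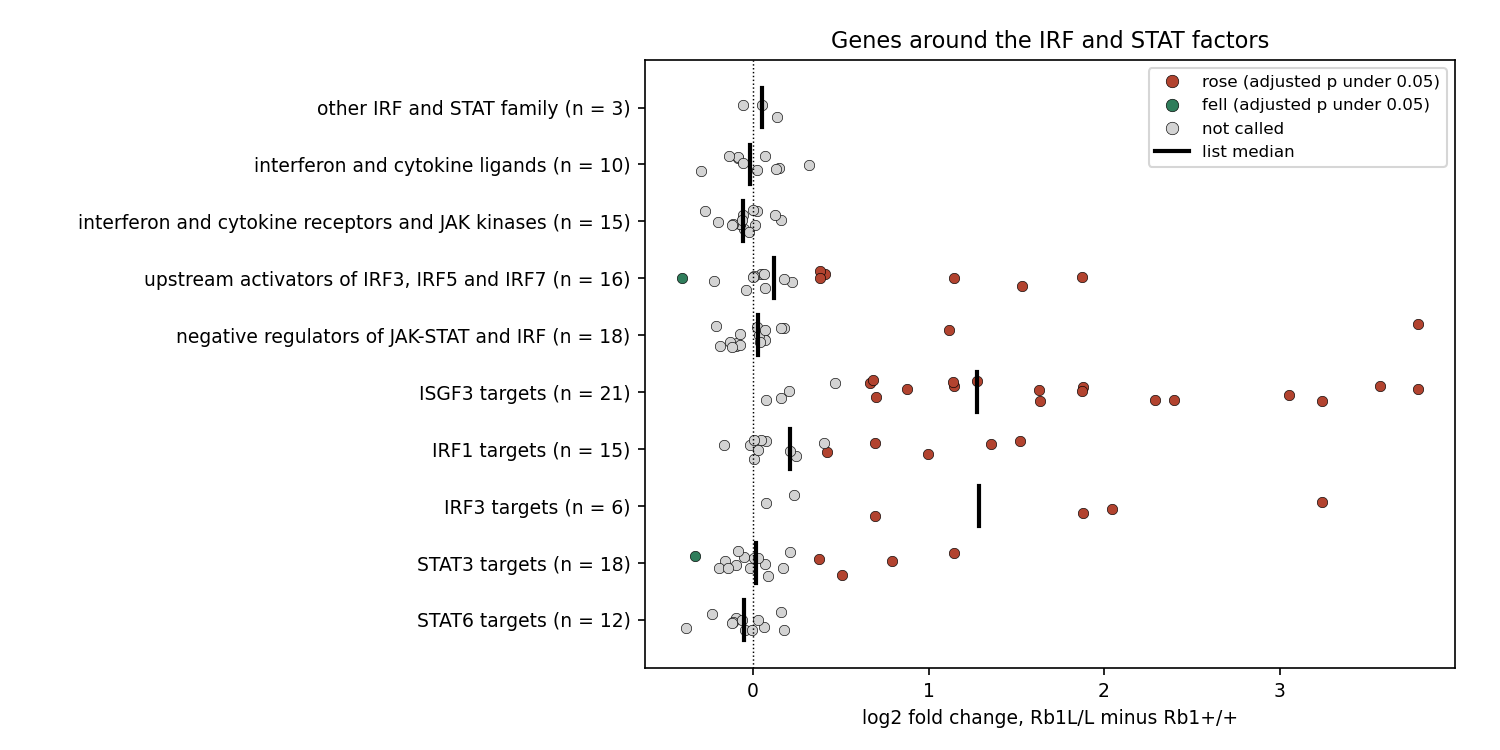
Log2 fold change, Rb1L/L minus Rb1+/+, of every tested gene in the 10 lists (1 point per gene, vertical jitter without meaning, black bar at the list median; red rose, green fell, grey not past an adjusted p of 0.05). No point of the ligand, receptor and STAT6 target lists is red or green, whereas the ISGF3 target list has its median at 1.27.

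Within genotypes some members ranked the 3 arrays in the order of their macrophage marker levels. MEF cultures can hold macrophages, and in RNA from a whole culture fewer cells of a type and less RNA per cell cannot be told apart. Of 15 tested macrophage markers 4 rose (Adgre1 by 0.95, Fcgr3 by 0.49, Cd14 by 0.35 and C1qa by 0.34) and Cx3cr1 fell by 0.34, with a median of 0.33. The shares of all tested genes were 7.10% that rose and 5.08% that fell. Aif1 lay under the cutoff. The mean log2 value of the 16 markers was 7.09, 7.44 and 7.29 in the Rb1L/L cultures, against 6.99, 6.79 and 7.23 in the Rb1+/+ cultures, so the genotypes overlapped. Irf1, Irf5 and Irf7 ranked the 3 arrays of each genotype in the same order as this mean did, a comparison added after the data were seen, which was so for 375 of 15462 tested genes (2.43%), whereas Irf2, Irf3, Irf9, Stat2, Stat3 and Stat6 did not rank both genotypes so. For Irf1 this order was nearly a tie between Rb1L/L replicates 3 and 1 (7.78 and 7.76). The part of macrophages in the rises was not tested. Rb1L/L replicate 1 had a lower marker mean than Rb1+/+ replicate 3 (7.09 against 7.23), but single markers went both ways between these arrays: 11 of the 16 were lower in Rb1L/L replicate 1 and 5 were higher, among them all 4 that rose. Adgre1, for instance, measured 6.73 in Rb1L/L replicate 1 and 6.25 in Rb1+/+ replicate 3. Between the same arrays Irf7 was higher by 1.35, Stat2 by 1.05, Irf9 by 0.89, Irf3 by 0.32 and Irf1 by 0.25, while Irf5 differed by -0.34. These arrays, a single one of each genotype, were picked by their marker means, which were reversed in no other pair across genotypes. Whether macrophage content had a part in these differences was not tested. Of the other lists, none of 6 blood markers and none of 5 epithelial markers passed (0 in both at an unadjusted p under 0.05 in limma), and of 6 endothelial markers only Kdr rose, by 0.58.

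**Figure D4:**
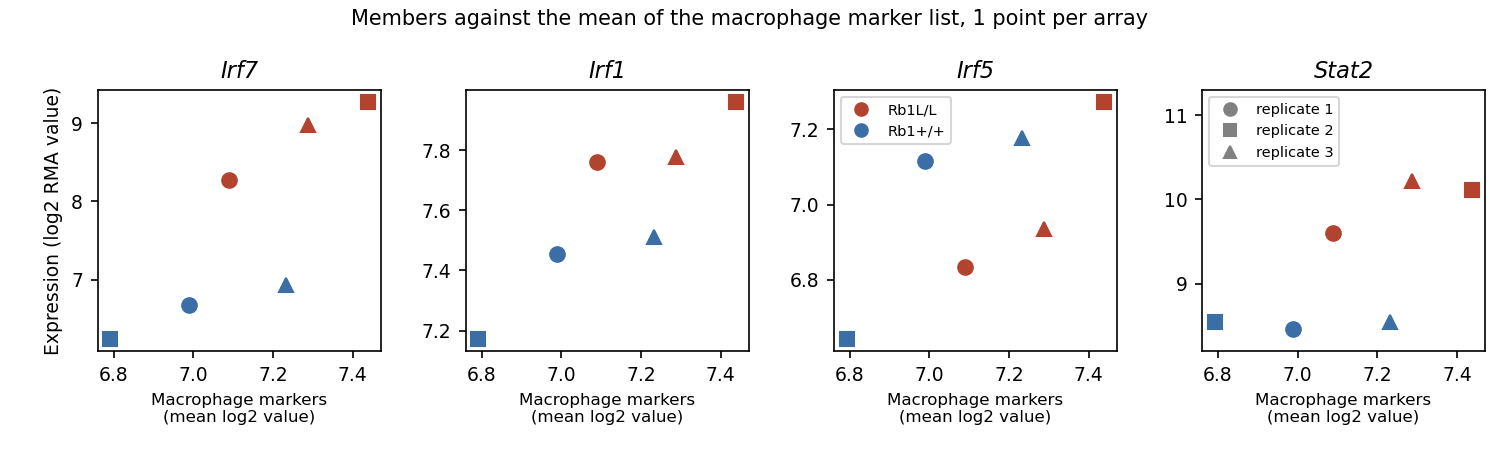
Log2 RMA value of Irf7, Irf1, Irf5 and Stat2 (vertical axes, each on its own scale) against the mean log2 value of 16 macrophage markers (horizontal axis), 1 point per array. The Irf5 points of the genotypes overlap, whereas for Irf7, Irf1 and Stat2 all Rb1L/L points lie above all Rb1+/+ points.

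Because the study concerned divergently paired genes, neighbours of the 9 genes were read as well, from the reference gene table, and head-to-head starts were looked up after the data were seen. Irf3 and Bcl2l12 lie head to head with annotated starts 69 bases apart, the only such pair within 1000 bases among the 9 genes in which the partner was tested. Bcl2l12 measured 7.85 in Rb1L/L and 7.71 in Rb1+/+ cultures, a difference of 0.14 ± 0.06 (SE; limma adjusted p = 0.147) in the same direction as Irf3, and did not pass. The gene on the other side of Irf3, Scaf1, differed by -0.16 (adjusted p = 0.146). Irf2 had a predicted gene, Gm16675, as its head-to-head partner at 230 bases, without a value here. Irf9 lies on chromosome 14, which also carries Rb1, and its neighbour Rnf31, a ubiquitin ligase gene, rose by 0.44 ± 0.08 (SE; limma adjusted p = 0.0142) while Rec8 on its other side differed by -0.10 (adjusted p = 0.43). The neighbours of Irf7, Phrf1 (-0.02) and Cdhr5 (-0.17), and the tested neighbour of Stat2, Apof (0.00), did not pass, nor did Slc22a5 (0.08) beside Irf1.

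Profiles over the 6 arrays were compared by the root mean square distance between log2 values, each gene centred on its own mean, and the nearest tested genes were taken for the 5 genes that rose. The distance includes the difference between genotypes. Both the nearest genes and the median distance therefore depend on the size of the rise. Nearest to Irf7 were Ccl5 (0.21), Ube2l6 (0.24) and Ifih1 (0.25), against a median distance of 1.18 over all genes. Irf9 was nearest to Lgals3bp (0.16), Irgm1 (0.17) and Ddx58 (0.19), and Stat2 to Gbp7 (0.09), Rnf213 (0.12) and Ifi35 (0.12), with medians of 0.78 and 0.77. Irf1 was nearest to Apobec1 (0.04), H2-Q5 (0.07) and Tdrd7 (0.07), with a median of 0.28. The genes nearest to Irf3, Puf60, Zfp740 and Clic1, lay at 0.02 each against a median of 0.16.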

How the data were processed

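Total RNA of 6 MEF cultures, 3 Rb1L/L and 3 Rb1+/+, was measured on 1 Affymetrix array each. The deposited table holds log2 values made by the authors with RMA, and Partek is the other tool named, per the submitters' processing notes; no version or setting was found in the labels. RMA forces the arrays onto one distribution and compresses folds of dim genes, so a shift shared by most genes is lost. Array medians ran from 6.39 to 6.45; arrays give no depth in reads, and 3 arrays a group limit the precision.

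Of 35556 clusters, 21789 carried 1 symbol in the platform annotation, 1621 several and 12146 none; 21698 matched the reference gene table (GRCm38.p6), used for names, neighbours and promoters. The sources used here do not name the array's own build. Groups were compared with limma 3.58.1 (R 4.3.3), genotype only. The labels number 3 replicates per genotype and do not say whether they came from separate embryos. The p-values measure only the spread between these replicates, which may be partly technical. Same-numbered arrays deviated together (r = 0.30, 0.24 and 0.30; 0.12, 0.20 and 0.26 without X and Y), and the design text speaks of pairs, so the number was also used as a block. On simulated data with 15462 genes, 27% of 100 genes changed 1.25-fold and 77% of 100 changed 1.5-fold were recovered, with 4 false calls. In the simulation only these genes changed and the noise was independent between arrays, so these shares need not hold for the data. The members, lists and tests were chosen with earlier results of these data known. Named genes were all members, Rb1, up to 4 called genes per list and direction, interferon receptor and kinase genes, neighbours and the 3 nearest profiles; others are marked as chosen later. Of the list genes, 14 were not analysed here.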

Additional observations from a re-analysis of the deposited data

How the results depend on the processing

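Irf7 and Stat2 passed in all 17 alternative fits (log2 fold change 1.83 to 2.54 and 1.34 to 1.64). Irf9 passed in 16 and missed without both arrays numbered 1 (adjusted p = 0.0644), Irf1 passed in 9 and Irf3 in 6. With the replicate block, 5 members rose as before, 2232 genes passed against 1883, and 37 list genes against 34; it changed no member's call. Without 1 array or 1 pair, the number of members called was 2 to 4, of list genes 22 to 31, and of all genes 92 to 1441 (822 without Rb1+/+ replicate 1, 911 without Rb1+/+ replicate 3, and 628, 622 and 1187 without Rb1L/L replicates 1, 2 and 3). Members called were 3 in the fits without Rb1+/+ replicate 1, or without Rb1L/L replicate 1, 2 or 3. Without both arrays numbered 1, 2 and 3 there were 92, 467 and 460 genes, 2, 3 and 3 members, and 22 list genes each. These fits use fewer arrays. After median centring 883 genes rose and 1067 fell, against 1098 and 785; the arrays' medians over tested genes spanned 0.056. The sign turned for Tyk2 after median centring (-0.0218) and quantile normalization (-0.0137) and without both arrays numbered 1 (-0.00201) or 2 (-0.0427), for Stat3 without both numbered 1 (0.0174) and for Irf5 without both numbered 2. That Irf5 value, -0.261 ± 0.081 (SE), was over its error but did not pass (limma adjusted p = 0.13). Without 1 array, the values ran from -0.072 to 0.103 for Tyk2, from -0.132 to 0.135 for Irf5, from -0.108 to 0.0169 for Stat3 and from -0.102 to 0.00306 for Ifnar1. The cause was not tested.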
